A study of Rattus norvegicus with 10 samples.

Results

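The 10 genes described here are Omd, Ogn, Dcn, Lum, Fmod, Bgn, Prelp and Aspn, which encode small leucine-rich proteoglycans, and Dpt and Mgp, which encode dermatopontin and matrix Gla protein. They are every gene of a fixed list of 10, out of 14217 genes that a probe set of the array names alone, and 15 probe sets read them. Their RNA was measured in the left ventricle of male Sprague-Dawley rats of 250 to 300 g, on day 3 after gene transfer. One group of 5 samples had received the GATA-4 gene, which encodes a zinc finger factor active in heart muscle, and the other 5 the LacZ gene, for bacterial beta-galactosidase. All 10 samples thus come from hearts that underwent a gene transfer, and no untreated ventricle was analysed here. The sources used here do not give the vector, its dose, the rats' ages or whether each sample is a separate rat, so p-values measure the spread between these samples. Groups follow the source label, since the titles name GATA-4 on all 10. A piece of ventricle mixes muscle cells, fibroblasts, vessels and blood-borne cells.

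Small leucine-rich proteoglycans are secreted proteins built of leucine-rich repeats, most of them carrying sugar chains of the chondroitin, dermatan or keratan sulfate type. They bind collagen fibrils and set fibril spacing and thickness, and several also hold growth factors of the TGF-beta family in the matrix. In the heart they are made mainly by fibroblasts and other stromal cells, as are dermatopontin, a small protein that binds decorin and collagen, and matrix Gla protein, a vitamin K-dependent inhibitor of calcification. The genes sit in families along the chromosomes. In the RefSeq order of rat genes (assembly GRCr8) Ogn, Omd and Aspn neighbour Ecm2, a related leucine-rich gene outside the list of 10, on chromosome 17, Dcn neighbours Lum on chromosome 7, and Prelp neighbours Fmod on chromosome 13. Bgn lies on chromosome X, Dpt on chromosome 13 and Mgp on chromosome 4.

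RefSeq sequence upstream of an annotated transcript start was at hand for 6 of the 10 genes and for Ecm2. It is shown for the 4 neighbours on chromosome 17, which the results turn on, and for Dpt. The lower signal of Dpt after GATA-4 transfer passed the threshold given below, while that of Lum did not. Each run is the 250 bases before the start, 5′ to 3′ on the gene's strand. Capitals mark GATAA, one form of the site that GATA factors recognise, searched on both strands (as TTATC on the opposite one). They also mark TATAAA, the TATA box, searched on the gene's strand. Other sites with the letters GATA were neither marked nor counted. The windows are chr17:15258996-15259245, chr17:15274871-15275120, chr17:15310470-15310719 and chr17:15358856-15359105 on the minus strand and chr13:79656091-79656340 on the plus strand, all of GRCr8.
Ogn: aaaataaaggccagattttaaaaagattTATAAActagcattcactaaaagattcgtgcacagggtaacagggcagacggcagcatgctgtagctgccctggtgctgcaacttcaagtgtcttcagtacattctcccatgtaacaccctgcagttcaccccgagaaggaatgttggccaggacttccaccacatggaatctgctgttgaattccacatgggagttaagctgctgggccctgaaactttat
Omd: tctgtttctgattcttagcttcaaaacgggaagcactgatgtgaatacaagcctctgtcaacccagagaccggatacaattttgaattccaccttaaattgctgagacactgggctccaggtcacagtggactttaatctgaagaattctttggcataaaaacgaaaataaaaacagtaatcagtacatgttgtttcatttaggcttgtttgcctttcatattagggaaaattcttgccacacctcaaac
Aspn: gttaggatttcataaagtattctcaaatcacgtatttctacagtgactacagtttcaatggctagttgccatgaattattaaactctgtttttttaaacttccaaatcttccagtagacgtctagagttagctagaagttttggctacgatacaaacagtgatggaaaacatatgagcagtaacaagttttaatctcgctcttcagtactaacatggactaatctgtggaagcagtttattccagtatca
Ecm2: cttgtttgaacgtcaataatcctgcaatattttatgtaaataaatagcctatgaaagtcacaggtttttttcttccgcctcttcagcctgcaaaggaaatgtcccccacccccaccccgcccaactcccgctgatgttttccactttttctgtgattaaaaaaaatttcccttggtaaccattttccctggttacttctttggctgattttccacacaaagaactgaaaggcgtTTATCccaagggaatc
Dpt: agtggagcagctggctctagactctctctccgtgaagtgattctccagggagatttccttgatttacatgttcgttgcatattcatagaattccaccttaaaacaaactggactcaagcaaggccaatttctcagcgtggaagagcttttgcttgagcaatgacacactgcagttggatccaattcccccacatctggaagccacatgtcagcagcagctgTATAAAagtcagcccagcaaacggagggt
The Ecm2 window held 1 GATAA on the opposite strand, from 16 bases before the start, and the windows of Ogn, Omd, Aspn and Dpt held none. Of the remaining windows, not shown, that of Fmod held 1, from 231 bases before the start, and that of Lum none. Among 33469 such windows of rat genes, 23.5% held one. TATAAA stood 29 bases before the start of Dpt and 222 bases before that of Ogn, and 8.06% of all windows held it. These matches describe letters in a short window only.

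Values are log2 probe set signals after quantile normalization, and a difference is the GATA-4 mean minus the LacZ mean, tested with limma and adjusted over all 18625 probe sets tested. A gene is said to have risen or fallen where its adjusted p lay under 0.05. Signals of different probe sets are not on a common scale, so the 10 genes are compared by their differences and not by their levels. Gata4 itself, read as a check of the labels, averaged 11.44 ± 0.14 in GATA-4 hearts and 10.65 ± 0.13 in LacZ hearts (SD, n = 5 each), with no overlap (limma adjusted p = 0.00131). GATA-4 array 1 stood apart: its 2%-trimmed mean deposited signal was 142, against 249 to 329 on GATA-4 arrays 2 to 5 and 249 to 314 on the LacZ arrays. The log2 ratio of 3′ to 5′ signal at control probe sets, a sign of RNA quality, was 0.99 on that array, 0.92 to 1.34 on GATA-4 arrays 2 to 5 and 0.88 to 1.43 among LacZ arrays. Differences that this array moved are given with and without it. All 15 measured cardiomyocyte markers passed the filter on low signals, the dimmest with a mean of 9.76, as did all 24 fibroblast markers, Pdgfra and Tcf21 among them.

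Of the 10 genes, Omd, Ogn and Dpt fell after GATA-4 transfer, Bgn rose, and 6 did not pass. Over the array 2.66% of 10688 genes fell and 3.71% rose, 6.37% together. The share that fell among the 10 genes, 3 of 10, was above that background, and the rise is that of 1 gene. The list was chosen with earlier results of these data known, and Ogn and Omd are neighbours on chromosome 17. The shares given here are therefore a description without a test. Counting genes whose groups did not overlap, 4 of the 10 lay lower and 1 higher, where 5.1% and 4.56% of all genes did. The 4 were Omd, Ogn, Aspn and Dpt, and all but Dpt are neighbours on chromosome 17. The median difference of the 10 genes was -0.12, against -0.017 over all genes tested. By probe set, 4 of the 15 fell and 1 rose, where 2.27% and 3.04% of all probe sets did (5.3% together), and 10 of the 15 differences were negative. Over all probe sets 566 rose and 422 fell, against 322 and 401 when arrays were centred on their medians in place of quantile normalization. None of the 10 genes passed in limma without LacZ array 3 or in the signals as deposited, where 4 and 3 still had a lower signal and 1 a higher one at an unadjusted p under 0.05. In these bulk samples fewer cells of a type and less RNA per cell cannot be told apart.

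**Figure D1:**
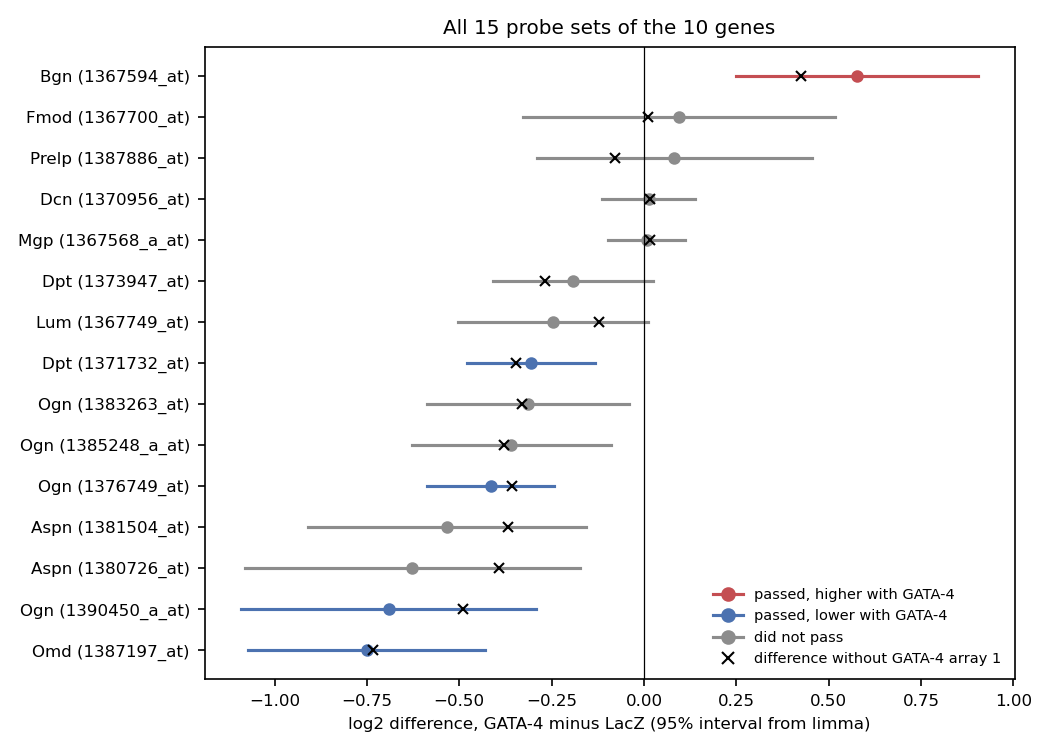
Log2 difference (GATA-4 minus LacZ) of each of the 15 probe sets on the horizontal axis, with limma's 95% interval as a line, coloured by whether the adjusted p passed. Crosses show the difference without GATA-4 array 1. All probe sets of Omd, Ogn, Aspn, Lum and Dpt lie below 0, Dcn and Mgp lie at 0.013 and 0.0077, and Bgn lies at 0.58.

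Omd encodes osteomodulin, a keratan sulfate proteoglycan first known from bone. Its probe set, 1387197_at, read 7.45, 7.90, 7.03, 7.54 and 7.69 on GATA-4 arrays 1 to 5, and 8.35, 8.13, 8.33, 8.17 and 8.38 on LacZ arrays 1 to 5. All GATA-4 arrays lay below all LacZ arrays, with array 3 the lowest. GATA-4 samples averaged 7.52 ± 0.32 and LacZ samples 8.27 ± 0.11 (SD, n = 5 each), a wider spread after GATA-4 transfer. Omd fell by 0.75 on the log2 scale (SE 0.15), 1.68-fold, with a limma adjusted p of 0.0174. Without GATA-4 array 1 the difference was -0.73. Among 10 fits without a single array each, only that without LacZ array 3 missed the threshold, with a limma adjusted p of 0.0614.

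Ogn encodes osteoglycin, also called mimecan, and is read by 4 probe sets. The brightest, 1376749_at, read 11.17, 11.60, 11.31, 11.47 and 11.47 on GATA-4 arrays 1 to 5, and 11.83, 11.71, 11.90, 11.82 and 11.83 on LacZ arrays 1 to 5. Again the groups did not overlap, although GATA-4 array 2 came close to LacZ array 2. Ogn fell by 0.41 (SE 0.08), 1.33-fold, with a limma adjusted p of 0.0155, and missed the threshold without LacZ array 3 (adjusted p = 0.0605 in limma) and not when any other single array was left out. The differences of the other 3 probe sets were also negative. For 1383263_at and 1385248_a_at they were -0.31 and -0.36, with overlapping groups and limma adjusted p-values of 0.167 and 0.113. For 1390450_a_at, which shares its source sequence with the brightest probe set, values were 8.34, 9.49, 9.13, 9.46 and 9.32 on GATA-4 arrays 1 to 5, and 9.89, 9.69, 9.95, 9.87 and 9.79 on LacZ arrays 1 to 5, with no overlap. This probe set fell by 0.69 (SE 0.18), with a limma adjusted p of 0.048. It passed with all arrays and missed the threshold when any LacZ array or GATA-4 array 3, 4 or 5 was left out.

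The Ogn probe sets differed in how they read GATA-4 array 1. There 1390450_a_at lay 1.01 below the mean of the other GATA-4 arrays, and the brightest probe set lay 0.29 below that mean. The remaining pair, 1383263_at and 1385248_a_at, lay 0.091 and 0.10 above it. Without that array the 4 differences ranged from -0.33 to -0.49, closer together than with it.

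Aspn encodes asporin, a member of the family with a run of aspartate residues that binds collagen and TGF-beta. Its brighter probe set, 1380726_at, read 8.11, 9.55, 9.19, 9.29 and 9.10 on GATA-4 arrays 1 to 5, and 9.86, 9.62, 9.60, 9.67 and 9.63 on LacZ arrays 1 to 5. The groups did not overlap, but array 1 lay 1.17 below the mean of the other GATA-4 arrays and widened the spread. The difference was -0.63 (SE 0.21) and did not pass (limma adjusted p = 0.102). The second probe set, 1381504_at, read 7.58, 8.76, 8.40, 8.27 and 8.20 on GATA-4 arrays 1 to 5, and 8.91, 8.75, 8.72, 8.68 and 8.81 on LacZ arrays 1 to 5. GATA-4 array 2 lay among the LacZ arrays there, and the difference of -0.53 did not pass either (limma adjusted p = 0.095). Without GATA-4 array 1 both differences were smaller, -0.39 and -0.37, and both passed, with limma adjusted p-values of 0.0189 and 0.0481. Without GATA-4 array 2 the second probe set passed as well (adjusted p = 0.0369 in limma).

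Ecm2, the fourth gene of the chromosome 17 row, encodes a matrix protein with leucine-rich repeats. It read 8.29, 9.28, 8.58, 8.46 and 8.92 on GATA-4 arrays 1 to 5, and 9.55, 9.25, 9.79, 9.55 and 9.63 on LacZ arrays 1 to 5. GATA-4 array 2 lay just above LacZ array 2, and the other 4 GATA-4 arrays lay below all LacZ arrays. Ecm2 fell by 0.85 (SE 0.17), 1.80-fold, with a limma adjusted p of 0.0196, and it missed the threshold in 2 of 10 fits without a single array each, at most with 0.0683 as limma's adjusted p. Without GATA-4 array 1 the difference was -0.75. The row was examined with these results known. Its flanking genes named on the array did not pass in limma: Iars1, Nol8 and Cenpp on one side had differences of 0.021, 0.029 and -0.25, and Ippk, Bicd2 and Susd3 on the other had 0.17, -0.048 and 0.32, with limma adjusted p-values from 0.299 to 0.942.

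**Figure D2:**
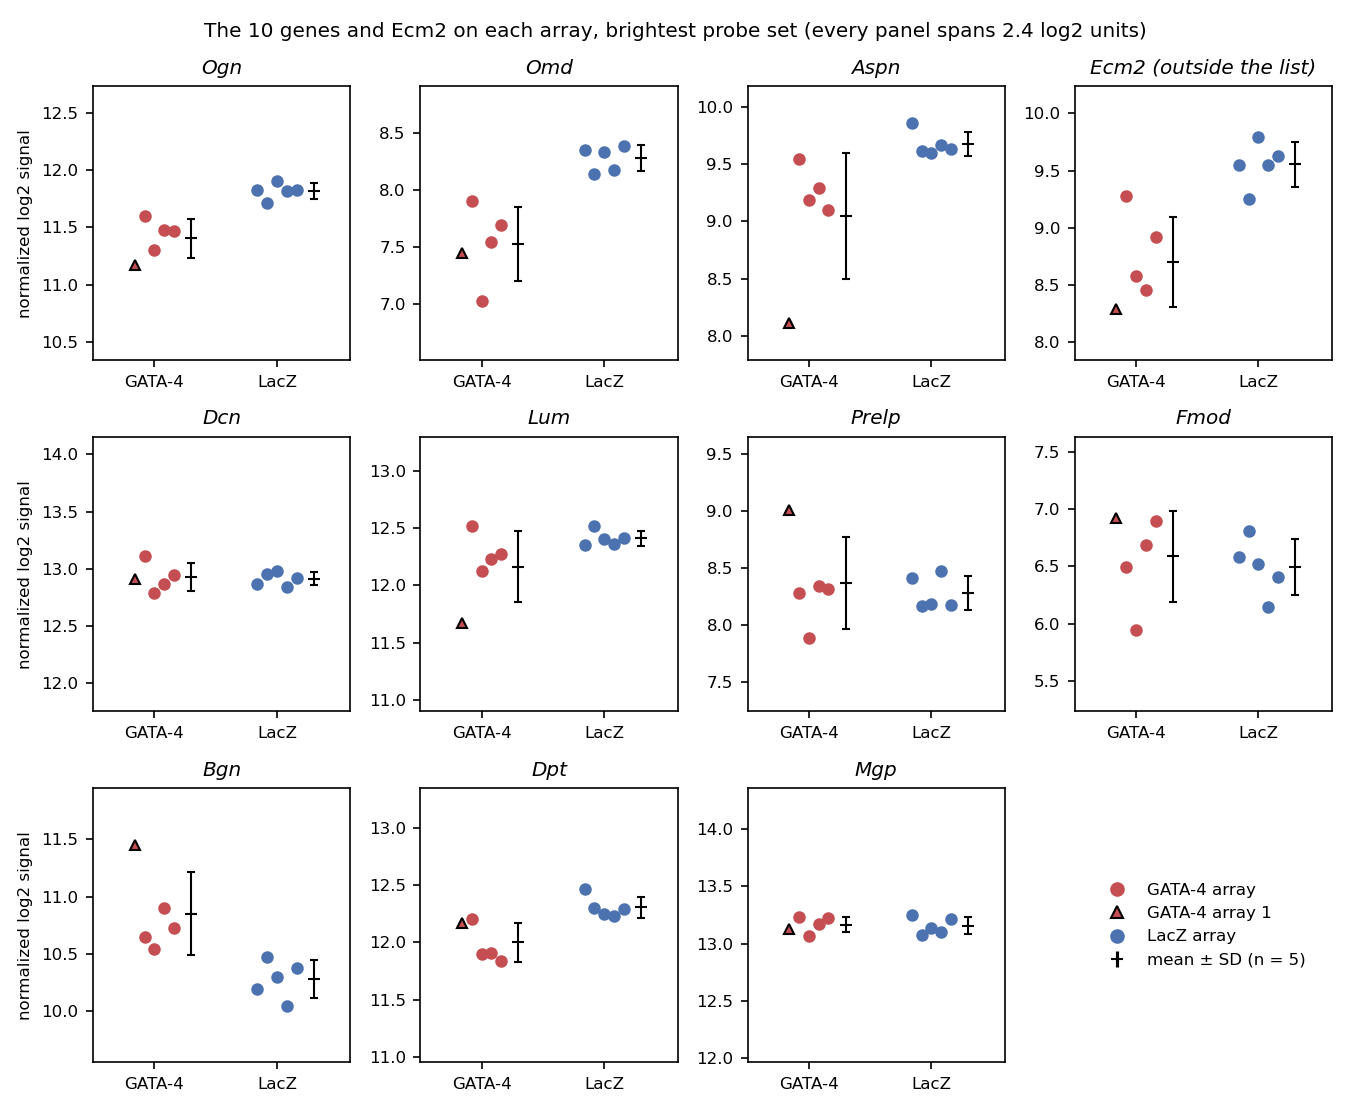
Normalized log2 signal on each array, 1 panel a gene, for the 10 genes and Ecm2 (brightest probe set), with GATA-4 arrays in red, LacZ arrays in blue, and mean ± SD (n = 5) beside them. The top row holds the chromosome 17 neighbours, where the GATA-4 arrays lie low, and the triangle is GATA-4 array 1, lowest for Ogn, Aspn, Ecm2 and Lum and highest for Bgn, Prelp and Fmod among the GATA-4 arrays.

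Bgn encodes biglycan, a chondroitin and dermatan sulfate proteoglycan closely related to decorin, which once released from the matrix signals through the receptors TLR2 and TLR4. Its probe set, 1367594_at, read 11.45, 10.65, 10.54, 10.90 and 10.72 on GATA-4 arrays 1 to 5, and 10.19, 10.47, 10.29, 10.05 and 10.38 on LacZ arrays 1 to 5. Every GATA-4 array lay above every LacZ array, GATA-4 array 3 the nearest to them. GATA-4 samples averaged 10.85 ± 0.36 and LacZ samples 10.28 ± 0.17 (SD, n = 5 each). Bgn rose by 0.58 (SE 0.15), 1.49-fold, with a limma adjusted p of 0.0463, and by 0.43 without GATA-4 array 1, where it was highest. The call was lost when any LacZ array or GATA-4 array 3, 4 or 5 was left out, with limma adjusted p-values of 0.0517 to 0.112.

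Dcn, the gene of decorin, which binds collagen I and TGF-beta, read 12.91, 13.12, 12.79, 12.87 and 12.95 on GATA-4 arrays 1 to 5, and 12.87, 12.96, 12.98, 12.84 and 12.92 on LacZ arrays 1 to 5 (1370956_at). The groups overlapped throughout, array 1 included, and the difference was 0.013 (95% interval -0.11 to 0.14). Lum, its neighbour, encodes the keratan sulfate proteoglycan lumican and read 11.67, 12.52, 12.12, 12.23 and 12.27 on GATA-4 arrays 1 to 5, and 12.35, 12.52, 12.40, 12.36 and 12.42 on LacZ arrays 1 to 5 (1367749_at). Here 4 of the GATA-4 arrays lay below all LacZ arrays and array 2 lay level with the highest of them. The Lum difference of -0.25 (95% interval -0.50 to 0.011) had a limma adjusted p of 0.246, and was -0.12 without GATA-4 array 1.

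Prelp, for a proteoglycan-like protein that binds heparan sulfate and collagen, read 9.01, 8.28, 7.89, 8.34 and 8.32 on GATA-4 arrays 1 to 5, and 8.41, 8.17, 8.18, 8.48 and 8.18 on LacZ arrays 1 to 5 (1387886_at). The difference was 0.082 (95% interval -0.29 to 0.45). Its sign rested on GATA-4 array 1, the highest of the 10 arrays, and without it the difference was -0.078. Fmod, for fibromodulin, a collagen-binding keratan sulfate proteoglycan, read 5.94 to 6.92 with GATA-4 and 6.14 to 6.81 with LacZ (1367700_at) and differed by 0.095 (95% interval -0.33 to 0.52), or by 0.012 without GATA-4 array 1. For both genes the limma adjusted p was 0.82.

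Among the pair that are not proteoglycans, Dpt fell and Mgp did not pass. The brighter Dpt probe set, 1371732_at, read 12.17, 12.20, 11.89, 11.91 and 11.84 on GATA-4 arrays 1 to 5, and 12.46, 12.31, 12.25, 12.23 and 12.29 on LacZ arrays 1 to 5. The groups did not overlap, though GATA-4 arrays 1 and 2 lay close to the LacZ arrays. Dpt fell by 0.31 (SE 0.08), 1.24-fold, with a limma adjusted p of 0.0452, and by 0.34 without GATA-4 array 1 (adjusted p = 0.00922 in limma). Leaving out any LacZ array or GATA-4 array 3, 4 or 5 gave 0.0693 to 0.109 in limma, above the threshold. The second Dpt probe set, 1373947_at, had a difference of -0.19 (SE 0.10) and did not pass (limma adjusted p = 0.282). Without GATA-4 array 1 its difference was -0.27 and passed (adjusted p = 0.0354 in limma). Its groups overlapped, and on GATA-4 array 1 it read 10.21, above all but 1 of the LacZ arrays. Mgp read 13.13, 13.23, 13.07, 13.17 and 13.22 on GATA-4 arrays 1 to 5, and 13.25, 13.07, 13.14, 13.10 and 13.22 on LacZ arrays 1 to 5 (1367568_a_at). These overlapped, with a difference of 0.0077 (95% interval -0.096 to 0.11).

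Because normalization between arrays bears on these values, each gene was also set against Dcn on the same array in the deposited signals. There a factor common to all probe sets of an array cancels. A distortion that depends on signal level does not cancel. Dcn was chosen for this after its values were seen, so the ratios are a description without a test. For Omd the log2 ratio to Dcn ran from -5.82 to -5.04 with GATA-4 and from -4.73 to -4.62 with LacZ. Ogn ran from -2.14 to -1.34 with GATA-4 and from -1.15 to -0.99 with LacZ, so neither gene's groups overlapped. The same held for Ecm2 and Dpt, with differences of -0.82 and -0.32, and for Bgn, whose ratio was 0.58 higher. Aspn, Lum, Prelp, Fmod and Mgp overlapped. On GATA-4 array 1 the ratios of Omd, Aspn, Ecm2, Ogn and Lum, -5.82, -5.20, -5.03, -2.14 and -1.55, were the lowest of the 10 arrays, and that of Bgn, -1.83, was the highest.

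**Figure D3:**
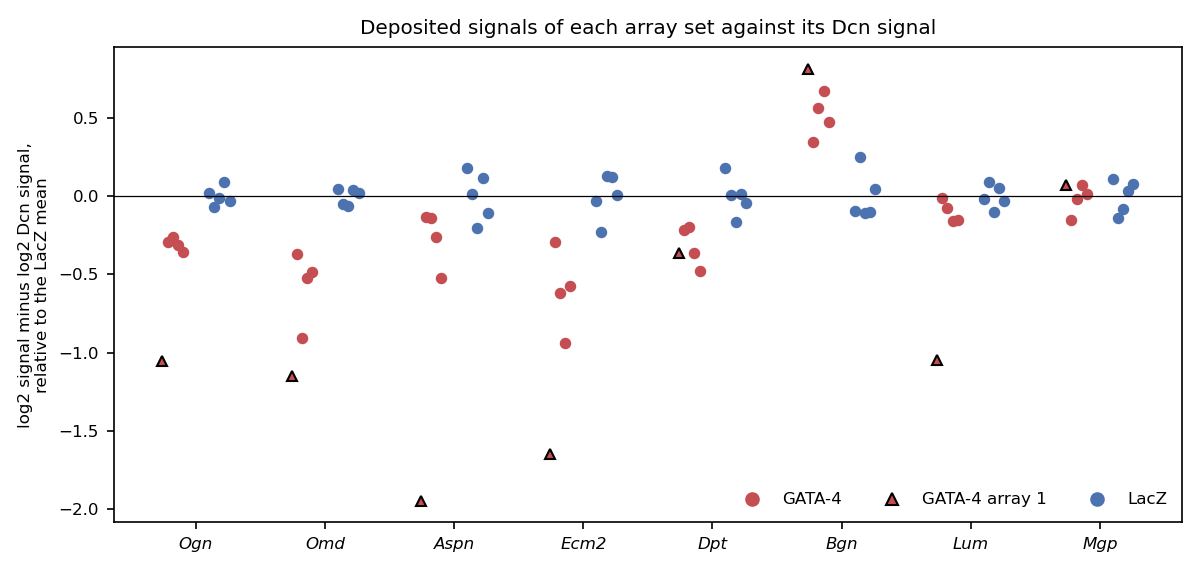
Log2 deposited signal of 8 genes minus the log2 Dcn signal of the same array, shown relative to the LacZ mean of each gene, with GATA-4 arrays in red (array 1 as a triangle) and LacZ arrays in blue. GATA-4 points lie below the LacZ points for Ogn, Omd, Ecm2 and Dpt and above them for Bgn, and they overlap for Aspn, Lum and Mgp.

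The 10 genes did not vary as one. Between log2 profiles centred over the 10 arrays, the mean absolute difference was smallest for Dcn and Mgp (0.072), then Dcn and Lum (0.14) and Ogn and Dpt (0.14). By this measure any pair of genes that hardly vary lies close, as Dcn and Mgp do, so it is no sign that they vary together. Omd lay about as close to Ogn (0.17) as to Ecm2 (0.17). Outside the list, by the same measure over 10678 genes, the nearest profiles to Omd were those of Trim63, a muscle ubiquitin ligase, Asb11 and Akr1e2, at 0.10 to 0.11. Nearest to Ogn were Btbd1, Cc2d2a and Dmac2l (0.049 to 0.056), and nearest to Dpt were Inpp5a, Hccs and Ginm1 (0.040 to 0.056). For Bgn they were Aebp1, whose product binds collagen, at 0.10, and Zfp94 and Arfgef2 at 0.11. These genes were picked for profiles over the same arrays, so their own group differences are fixed by that choice and are not given.

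Of the other small leucine-rich genes, 7 of 10 listed are named on the array and 3 passed the filter on low signals: Ecm2, Tsku, which encodes tsukushi (difference 0.33, limma adjusted p = 0.237), and Podn, which encodes podocan (-0.28, limma adjusted p = 0.263). Chad, Chadl, Podnl1 and Optc were too dim to test. Beside the counts of the lists that follow stand the shares of all genes that rose and fell, 3.71% and 2.66%. Among 24 genes of collagen fibrils and their partners 4 (16.7%) passed, all of them higher, and the median was 0.18. They were Vcan, the large proteoglycan versican (2.07-fold), Col12a1, a fibril-associated collagen (1.95-fold), Fn1, fibronectin (1.62-fold), and Pcolce, an enhancer of procollagen processing (1.46-fold), at limma adjusted p-values between 0.00457 and 0.0248. Vcan and Fn1 passed in all 10 fits with an array left out, while Col12a1 missed in 2 and Pcolce in 4. The lists share genes, so their shares are not separate observations. Pcolce is counted again among the fibroblast markers below, and Fn1 among the markers of activated fibroblasts.

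Enzymes that build the sugar chains were followed as a list of 33, of which 22 were tested. In this list 3 (13.6%) rose, the other 19 did not pass and the median was 0.083. Chpf2 and Chst12, which extend and sulfate chondroitin, rose 1.47-fold and 1.41-fold, and B4galt1, a galactosyltransferase, rose 1.87-fold, with limma adjusted p-values of 0.0265, 0.0308 and 0.0309. With an array left out Chpf2 and Chst12 each missed the threshold in 5 of 10 fits, and B4galt1 in 9. Of 23 ligands, receptors and proteases of the family 1 rose (4.35%, near the share of all genes), with a median of 0.35 and 10 higher and 1 lower at an unadjusted p under 0.05. It was Cd14, a coreceptor of TLR4 and TLR2 that is also counted among the macrophage markers (1.82-fold, limma adjusted p = 0.0136, lost without LacZ array 3 at 0.0511). Tlr2, one of biglycan's receptors, had a difference of 0.72 and narrowly missed (adjusted p = 0.0504 in limma). Of 9 tested genes of the matrix Gla protein cycle and calcification none passed in limma, 2 having an unadjusted p under 0.05, with Vkorc1l1 at 0.49 and Enpp1 at 0.36 (limma adjusted p of 0.0667 and 0.0863).

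Fibroblast markers went both ways. Of 24 tested 3 fell (12.5%) and 1 rose (4.17%), with a median of -0.19: Abca8a, a lipid transporter, fell 1.35-fold, Medag 1.34-fold and Htra3, a secreted protease, 1.35-fold, at limma adjusted p-values between 0.0248 and 0.0437, and Pcolce rose. In 6, 7 and 8 of the 10 fits without an array Abca8a, Medag and Htra3 missed the threshold. Pdgfra and Tcf21, defining genes of fibroblasts, had differences of -0.21 and -0.32 (limma adjusted p of 0.29 and 0.269). Higher without passing were Thy1 (0.37, with no overlap), Sfrp1 (0.43), Col1a1 (0.26) and Serping1 (0.21), at limma adjusted p-values of 0.0571 to 0.0985. At an unadjusted p under 0.05 in limma, 7 fibroblast markers were lower and 7 higher. Pdgfra and Tcf21 were not among them. The summed linear signal of the list ran from 45202 to 55900 with GATA-4 and from 48697 to 53985 with LacZ, so the groups overlapped. Such a sum is weighted toward the brightest probe sets and says little of dim markers. Col3a1 and Col1a1 had mean log2 signals of 13.31 and 12.82, against 8.26 for Tcf21. Of 16 markers of activated fibroblasts 3 (18.8%) rose, Tnc, the matrix protein tenascin C (2.14-fold), Timp1, a metalloproteinase inhibitor (2.06-fold), and Fn1. The others did not pass, among them Postn, Fap and Cthrc1 with differences of 0.044, -0.14 and 0.24. The median of the list was 0.31, with 14 differences positive and 2 negative. The list's sum, which the bright signals of these 3 genes enter, ran from 19863 to 25182 with GATA-4 and from 13507 to 17740 with LacZ.

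Markers of other cells moved as well. Of 16 macrophage markers 9 (56.2%) rose and 7 did not pass, led by Tyrobp (2.35-fold, limma adjusted p = 0.00074). Their sum, again weighted toward the brightest probe sets, ran from 25516 to 31115 with GATA-4 and from 18442 to 21832 with LacZ. Csf1r and Cd68 rose 1.45-fold and 1.61-fold, while Lyz2, C1qb, Mrc1, Laptm5 and Fcer1g missed the threshold in 8, 7, 6, 4 and 4 of the 10 fits without an array. The dimmest of the 16 averaged 6.28. Of 15 cardiomyocyte markers 2 (13.3%) fell, Casq2 by 0.31 and Ttn by 0.27, and the others did not pass. The median of that list was -0.060, with 12 differences negative and 3 positive. Of 13 endothelial markers 1 (7.69%) rose, Ecscr (1.33-fold, missed in 7 of 10 fits without an array). Yet 8 of the 13 differences were negative, with a median of -0.071. At an unadjusted p under 0.05 in limma, 4 endothelial markers were lower and 2 higher. Emcn had a difference of -0.34 with no overlap and did not pass (limma adjusted p = 0.0586). Of 14 smooth muscle and pericyte markers none passed in limma, and 0 had an unadjusted p under 0.05. Mesothelial markers were mostly too dim to test, 5 of 11 passing the filter, and went different ways. Krt18 averaged 7.28 ± 0.74 in GATA-4 samples and 3.54 ± 1.44 in LacZ samples (SD, n = 5 each). Its LacZ signal lay below the filter's level of 5.17, so it was tested only through its GATA-4 signal and its call is not read as a result. Of the other 4, C3 and Slpi had differences of 0.68 and 0.42 and Wt1 and Lrrn4 of -0.51 and -0.22, and none passed in limma, 2 having an unadjusted p under 0.05. The part of these cells in the differences of the proteoglycan genes was not tested.

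**Figure D4:**
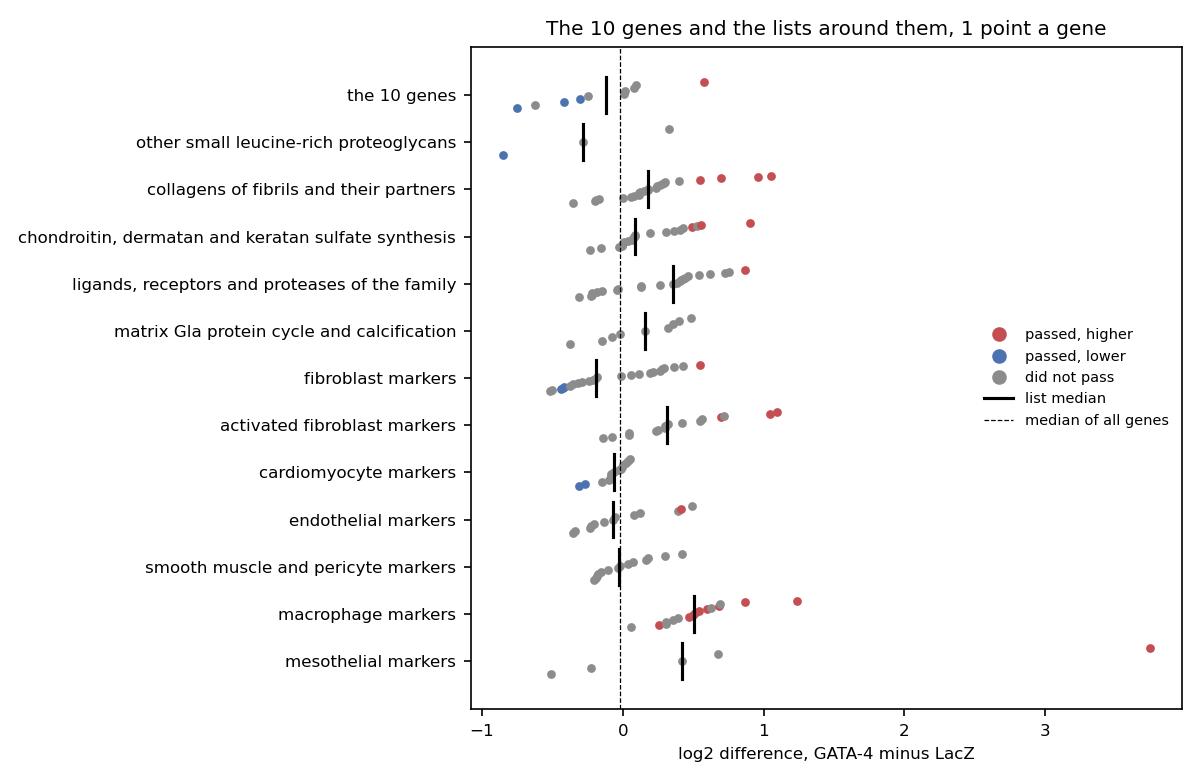
Log2 difference (GATA-4 minus LacZ) of every tested gene in the list of 10 and in 12 lists, 1 point a gene, coloured by whether it passed, with the list median as a bar and the median of all genes (-0.017) as a dashed line. A gene shared between lists has a point in each. The 10 genes spread from -0.75 to 0.58, with the bar at -0.12, while the bars of the collagen and macrophage lists lie at 0.18 and 0.51.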

How the data were processed

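The authors deposited 1 table of probe set intensities on a linear scale, which the submitters' processing notes credit to GCOS, the scanner maker's software. Its version, summary algorithm and scaling are not named in the sources used here, and the number of arrays limits the precision. Groups follow each sample's source label. Replicate numbers only name arrays.

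Gene names came from the platform annotation of GEO where it lists 1 gene for a probe set (20826 of 31042; 436 list several and 9780 none), and 57 array controls were left out. Of the 20826, gene IDs of 20758 matched RefSeq. Signals were taken to log2, quantile normalized and floored at 0. Probe sets with a mean above the 40th percentile (5.17) were tested with limma 3.58.1 in R 4.3.3 (lmFit, eBayes with trend, no covariates), two-sided, with Benjamini-Hochberg adjustment over 18625 probe sets. The brightest probe set stood for its gene. In simulated data on these probe sets, 200 were changed and noise was drawn independently for each. There limma recovered 6% of 1.25-fold, 30% of 1.5-fold and 74% of 2-fold changes. In the real data 988 probe sets passed and GATA-4 array 1 stood apart, so these shares need not hold there. Array weights used statmod 1.5.0.

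The 10 genes, the lists and the tests were chosen with earlier results of these data known. Named genes are the 10, Gata4, the called members of each list with the 2 smallest p-values, and the 3 nearest profiles of each called gene. Other names were chosen after their values were seen. Alternatives are described in the closing section.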

Additional observations from a re-analysis of the deposited data

Results flagged for a closer look

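Within the 5 arrays of each group, 30 sets of values of the 15 probe sets were screened for an array far from the rest, and 3 stood out, where chance gives about 1 in 20. Ogn probe set 1383263_at read 9.8637 on GATA-4 array 3 but 10.32 to 10.38 elsewhere with GATA-4. Aspn probe set 1380726_at read 9.8569 on LacZ array 1 and 9.60 to 9.67 on the other LacZ arrays. Dpt probe set 1373947_at read 10.27 on LacZ array 4 and 10.02 to 10.09 on the other LacZ arrays. None of the 3 was on GATA-4 array 1.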

How the results depend on the processing

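In all 20 alternatives every probe set of Omd, Ogn, Aspn, Lum and Dpt kept a negative difference and Bgn a positive one. The count of genes that fell, 3 with all arrays and quantile normalization, was 0 in the signals as deposited, 1 without the intensity trend and 0 without both GATA-4 arrays 4 and 5, whose sample numbers lie apart from the rest, and 0 to 4 with 1 array left out. The count that rose, 1, was 0 in the signals as deposited, under median centring, without the filter, without the trend and without GATA-4 arrays 4 and 5, and 0 to 1 with 1 array left out. Without LacZ array 3 no gene passed in limma. In the settings that gave 0, 3 to 5 genes had a lower and 1 a higher signal at an unadjusted p under 0.05. Fits without arrays hold fewer samples, and for the other settings the cause was not tested. Under median centring Dpt and Bgn missed, at limma adjusted p-values of 0.0743 and 0.0739. In the signals as deposited limma called 9 higher and 0 lower probe sets of all those tested, against 566 and 422 after quantile normalization, 142 and 32 without LacZ array 3 and 1464 and 1385 without GATA-4 array 1, and the limma adjusted p of Omd, Ogn, Dpt and Bgn was 0.993 at differences of -0.76, -0.53, -0.40 and 0.50. Without the trend Ogn's adjusted p in limma was 0.0506.

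The median difference of the 10 genes, -0.12, was -0.22 in the signals as deposited, under median centring (-0.224) and under that centring without GATA-4 array 1 (-0.219), -0.25 with the filter at the 60th percentile, which left out Fmod, -0.19 to -0.097 with 1 array left out and -0.073 with array weights. Adding 16 to every signal or robust empirical Bayes left the counts at 3 and 1 and the median at -0.12. Array weights gave 4 and 1, with Aspn gained at limma adjusted p-values of 0.0161 and 0.0191, and the second probe set of Dpt (0.0281) and 1385248_a_at of Ogn (0.0337) passed too. Genes near 0 turned sign. Mgp was -0.077 in the signals as deposited, -0.080 under median centring, -0.18 under that centring without GATA-4 array 1, -0.015 without GATA-4 arrays 4 and 5, and -0.013 to 0.032 with 1 array left out. Dcn was -0.076, -0.079 and -0.16 in the first 3 of these and -0.035 to 0.048 with 1 array left out. Prelp was -0.080 under median centring without GATA-4 array 1 and -0.078 to 0.20 with 1 array left out, and Fmod was -0.039 without GATA-4 arrays 4 and 5. No paired analysis was possible because the labels give the groups no shared replicate numbers. Dim signals limit what Fmod and the untested genes can show.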
